A study of Homo sapiens with 15 samples.

Results

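RNA levels of 10 Notch pathway genes were measured in C4-2B cells, an established human prostate adenocarcinoma line, of 58302 genes in the tables. The 10 genes were chosen by name, by a rule that uses no measured value but with earlier results of these data known. They are the receptors NOTCH1, NOTCH2 and NOTCH3, the Jagged ligands JAG1 and JAG2, the Delta-like ligands DLL1 and DLL3, and the nuclear factors HES1, HES4 and HES6. A further 56 genes of the pathway, grouped by role, were read in the same libraries. The study labels 15 libraries in 5 groups of 3. They are C4-2B cells, labelled wild type, and the lines DKD and ER, each labelled either scr, a scrambled control, or siPax5 for an siRNA that targets Pax5. The 3 C4-2B libraries carry no drug or siRNA in their labels and were grown in RPMI with fetal bovine serum. The DKD and ER libraries were not analysed here, so the values describe 1 cell line and no difference between conditions was tested. The labels do not say whether the 3 replicates came from separate cultures, so their spread may be technical.

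Notch receptors are single-pass membrane proteins that are activated by ligands on a neighbouring cell. Ligand binding exposes the receptor to a metalloprotease and then to gamma-secretase, which frees the intracellular domain. That fragment enters the nucleus, binds the DNA-binding factor RBPJ with a mastermind coactivator, and switches on genes of the HES and HEY families. HES proteins are basic helix-loop-helix repressors, and in neural and neuroendocrine cells HES1 is known to hold down proneural factors. Notch signalling is known in the prostate for its part in the balance of basal and luminal cells.

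Levels are given as TPM, the read count of a gene divided by the length of its exons and scaled to the same sum in every library, so that genes of different length can be set side by side within a library. The libraries held 44992971, 49569026 and 46232076 counts. A single RNA of the signal recognition particle, RN7SL2, took 18.9 to 20.3% of TPM, which lowers the TPM of all other genes alike within a library. All 5 luminal prostate markers read (KLK3, KLK2, TMPRSS2, KRT8 and KRT18) reached 1 TPM in each library, with a summed level of 2947 to 2977 TPM. None of the 3 basal markers reached 1 TPM, with the 3 summing to 0.787 to 0.998 TPM. KRT14 was just under the minimum at 0.998, 0.826 and 0.772 TPM. KRT5 had 1 count over the libraries and TP63 had 0 counts. Of 4 neuroendocrine markers, CHGA and SYP passed 1 TPM, with the 4 summing to 2.47 to 3.04 TPM. None of 9 markers of blood, endothelium and fibroblasts did. In bulk RNA, fewer cells that express a gene and less RNA per cell cannot be told apart.

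All 10 genes reached 1 TPM in every library. The same held for 32.8% of all genes and for 61.2% of protein-coding genes. The median of the 10 mean levels was 49.0 TPM, against 22.2 TPM for the protein-coding genes that passed the same minimum, and 7 of the 10 lay above that value. HES4 had the highest level, followed by HES1, HES6, JAG2, NOTCH1, NOTCH3, NOTCH2, DLL3, JAG1 and DLL1. From the top to the bottom of this order the level fell 45.7-fold. In each of the 9 pairs of neighbours in the order, the 3 values of the higher gene lay above all 3 of the lower. An exact two-sided permutation test gave p = 0.1 for every pair (adjusted p = 0.1), the smallest that 3 values against 3 allow, so no pair could pass 0.05. It treated the values as independent, although both genes of a pair were read in the same libraries. The pairs were also set by the order of these same means, so the test adds no support for the order. The closest neighbours were HES6 and JAG2, which differed by 0.27 ± 0.05 on the log2 scale (SD, n = 3). The widest step, between DLL3 and JAG1, was 1.15 ± 0.10.

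**Figure D1:**
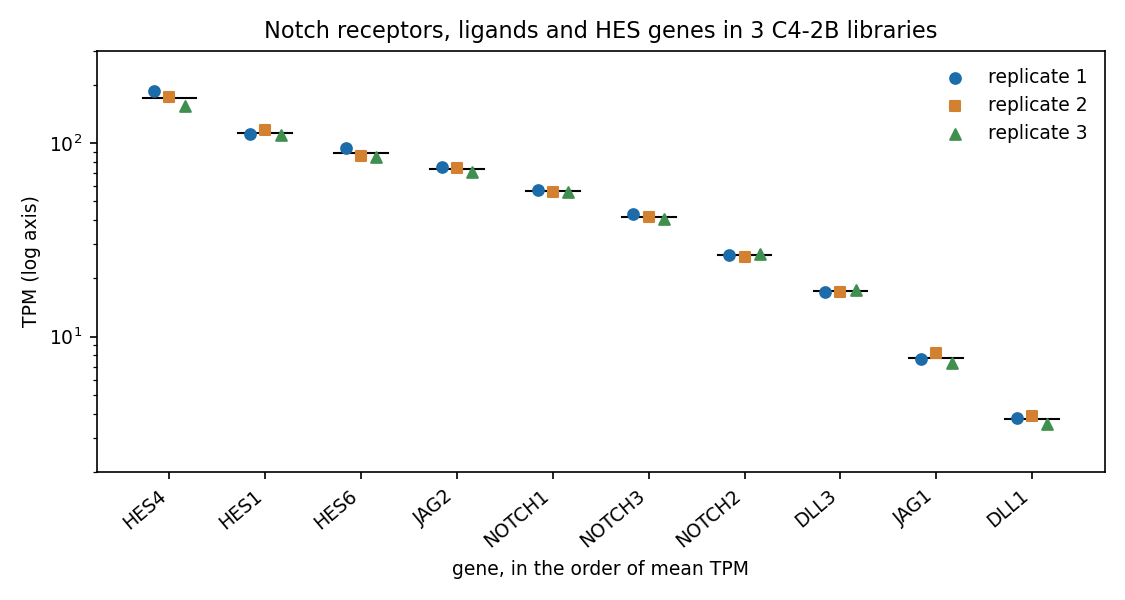
TPM on a log axis for the 10 genes in the 3 C4-2B libraries, with a symbol for each replicate and a line at the mean. HES4, HES1 and HES6 sit at the top at 88.4 to 171 TPM, and DLL1 at the bottom at 3.74 TPM.

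NOTCH1, the receptor on chromosome 9 (ENSG00000148400, chr9:136494444-136545862, GRCh38, minus strand), was read at 57.2, 56.0 and 55.9 TPM in replicates 1, 2 and 3. Its mean was 56.4 ± 0.761 TPM (SD, n = 3), the highest of the receptors, and 12.9% of protein-coding genes were above it. NOTCH3, the receptor known from vascular smooth muscle (ENSG00000074181, chr19:15159038-15200981, minus strand), had 42.9, 41.7 and 40.5 TPM, a mean of 41.7 ± 1.21. NOTCH2 (ENSG00000134250, chr1:119911553-120069626, minus strand) had 26.4, 25.7 and 26.6 TPM, a mean of 26.3 ± 0.469. These 3 receptors did not overlap in level in any library. The remaining receptor, NOTCH4, known mainly from endothelium, was at 0.510, 0.535 and 0.556 TPM.

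Of the receptor RNA, counted as the summed TPM of the 4 receptors (125 ± 1.94 TPM), NOTCH1 made up 45.1% ± 0.103, NOTCH3 33.4% ± 0.549, NOTCH2 21.0% ± 0.439 and NOTCH4 0.427% ± 0.0247 (SD, n = 3). NOTCH1 was 2.15 ± 0.0403-fold above NOTCH2 within libraries. The place of NOTCH2 carries a limit of counting. Of its 16807 exon bases, 5436 (32.3%) are also present elsewhere on chromosome 1 in near-identical form, with at least 98% identity over at least 75 bases. The other 9 genes hold no such bases. The copies lie in NOTCH2NLA, a human-specific partial copy of NOTCH2, within NBPF14, NBPF19 and NBPF26, and in the gene ENSG00000213240, which has no symbol. Reads that align to several places were not counted, so the count of NOTCH2 may be too low. NOTCH2NLA held 80, 65 and 94 counts, against 6444, 6884 and 6607 for NOTCH2. The same rule applied to NOTCH2NLA, so its count may be too low as well. NBPF14 held 315, 328 and 344 counts, NBPF19 323, 365 and 343, and NBPF26 239, 320 and 267. ENSG00000213240 held 0, 1 and 0. Like NOTCH2NLA, it matched 5422 bases of NOTCH2, and whether these genes overlap each other was not tested. Reads on several genes were not counted, so an overlap would lower both counts. Taking only the 11371 bases without a copy as length, an alternative chosen after seeing the data, raised NOTCH2 to 39.1, 38.0 and 39.3 TPM and lowered the share of NOTCH1 to 41.0%. These values stayed below the lowest NOTCH3 value of 40.5 TPM. All counts of NOTCH2 were kept and only the length was cut. The raised levels are therefore too high, and the NOTCH1 share too low, where reads in the copied bases were counted.

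JAG2 was the leading ligand. Its RNA (ENSG00000184916, chr14:105140981-105168824, minus strand) was at 75.3, 74.2 and 70.8 TPM, a mean of 73.4 ± 2.37 (SD, n = 3). Exons of another gene on the same strand cover 7.33% of its exon bases, and reads there were counted for neither gene. With lengths outside overlaps its mean was 75.5 TPM, and with the longest coding transcript 60.4 TPM. JAG1 (ENSG00000101384, chr20:10637684-10674107, minus strand), the ligand altered in Alagille syndrome, was at 7.64, 8.20 and 7.34 TPM, a mean of 7.73 ± 0.438. JAG2 was therefore 9.52 ± 0.422-fold above JAG1 within libraries, with no overlap.

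DLL3, a Delta-like protein that is held largely inside the cell, does not activate receptors on neighbours and is known as a surface antigen of neuroendocrine tumours, was measured in the adenocarcinoma line at 16.9, 16.9 and 17.5 TPM (ENSG00000090932, chr19:39498895-39508481, plus strand), a mean of 17.1 ± 0.319. DLL1, an activating ligand (ENSG00000198719, chr6:170282206-170306565, minus strand), was the lowest of the 10 genes at 3.78, 3.89 and 3.55 TPM, a mean of 3.74 ± 0.178, from 546 counts over the libraries (95% exact Poisson interval 501 to 594, counting error only). With the longest coding transcript as length the mean of DLL1 was 2.37 TPM. That transcript has 3779 bases, more than the 3226 over which reads were counted, so this value may be too low. By the deposited length DLL3 lay 4.58 ± 0.306-fold above DLL1. DLL4, a ligand of vessel sprouting, was at 0.610, 0.912 and 0.840 TPM.

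Summed over the 5 Delta and Jagged ligands, the level was 103 ± 2.44 TPM. JAG2 made up 71.4% ± 0.742 of it, DLL3 16.7% ± 0.716, JAG1 7.51% ± 0.313, DLL1 3.64% ± 0.0967 and DLL4 0.767% ± 0.159 (SD, n = 3). Of the non-canonical relatives, DLK2 was at 2.97 to 3.95 TPM. DLK1, an imprinted gene of fetal tissues, had 0 counts, where 3 counts over the libraries would have been 0.0125 TPM. Ligands need ubiquitin ligases to pull on the receptor. Of 4 of these, 3 passed 1 TPM in every library, with MIB1 at 34.8 ± 0.911, NEURL1B at 23.1 ± 0.922 and MIB2 at 12.3 to 13.4 TPM. With the longest coding transcript as length MIB2 was at 25.5 TPM, above NEURL1B at 17.1 and near MIB1 at 25.7. NEURL1 was at 0.559 to 0.890 TPM.

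**Figure D2:**
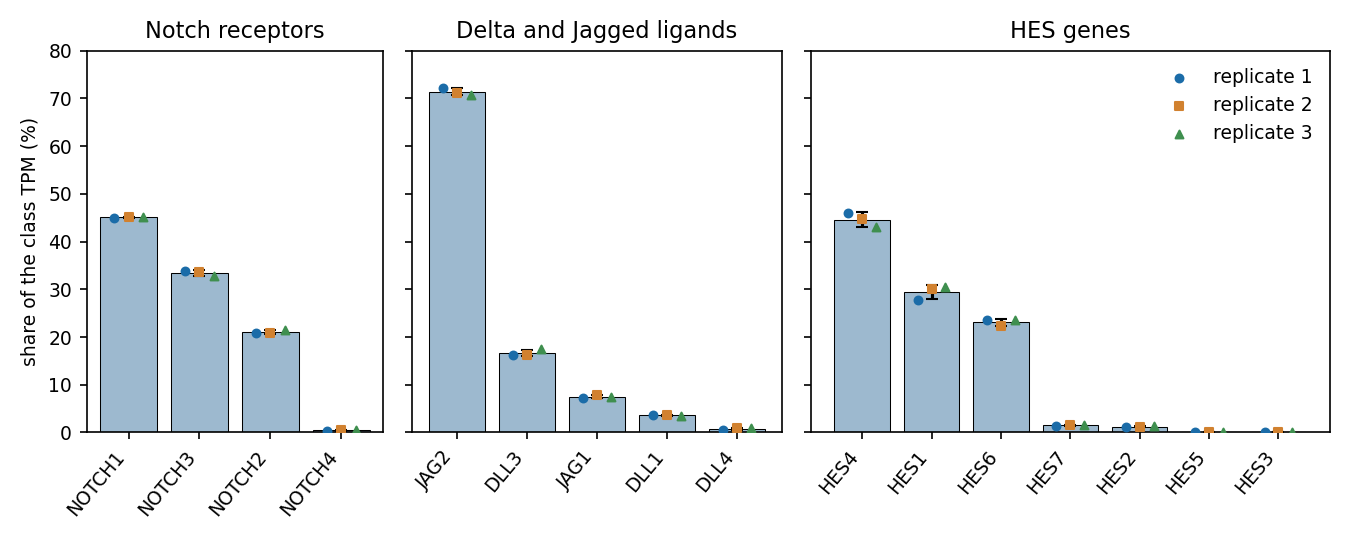
Share of summed TPM, in percent, taken by each gene within the receptors, the ligands and the HES genes, with bars for the mean of the 3 C4-2B libraries, error bars for the SD and a symbol for each replicate. NOTCH1 (45.1%), JAG2 (71.4%) and HES4 (44.6%) have the largest share of their class.

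HES4 (ENSG00000188290, chr1:998962-1000172, minus strand) had the highest level of the 10 genes and the widest spread. Its TPM was 184.8, 173.6 and 154.7, a mean of 171 ± 15.2 (SD, n = 3), and 3.28% of protein-coding genes were above it. HES1 (ENSG00000114315, chr3:194136145-194138732, plus strand), the best known Notch target, had 111.7, 116.9 and 109.9 TPM, a mean of 113 ± 3.62. HES6 (ENSG00000144485, chr2:238238267-238240662, minus strand), which is known to oppose HES1 and to favour neuronal differentiation, had 94.3, 86.2 and 84.6 TPM, a mean of 88.4 ± 5.19. Replicate 1 was highest for HES4 and HES6, and replicate 2 for HES1, and the 3 genes did not overlap in level.

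The 7 HES genes summed to 383 ± 21.2 TPM. HES4 took 44.6% ± 1.52, HES1 29.5% ± 1.48 and HES6 23.1% ± 0.731 (SD, n = 3). The other HES genes were far lower. HES7, a factor of the somite clock, was at 5.66 ± 0.164 TPM and HES2 at 4.69 ± 0.0887. HES5, a Notch target of neural progenitors, was at 0.423, 0.433 and 0.363 TPM from 24 counts in all. HES3 had 0 counts. Of the related HEY genes, HEY1 was at 4.67, 5.83 and 4.92 TPM, while HEY2 and HEYL had 0 counts. The levels that 3 counts would have had are 0.0953 TPM for HES3, 0.0242 for HEY2 and 0.0181 for HEYL.

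To set the levels beside promoter sequence, the 250 bases before the RefSeq start (GRCh38.p14) were searched on both strands for TGGGAA, the core of the RBPJ motif. Entries were found for 15 of 18 genes searched and for 8 of the 10 genes described here (not DLL1 and DLL3). The motif was present in 2 of these 8, HES1 and HES4, and absent from the windows of HES6, NOTCH1, NOTCH2, NOTCH3, JAG1 and JAG2. Of the other genes searched, HES3, HES5, HEY2 and HEYL held it, HES2, HES7 and NRARP did not, and HEY1 had no entry. Of all 35116 promoters in the table, 20.8% held at least 1 motif and 2.90% at least 2. Windows of HES1, HES4, HES5 and HEYL are shown because they hold the same 6 letters near the start of genes at the top and at the bottom of the family. They are chr3:194135898-194136147 (plus strand), chr1:1000098-1000347, chr1:2530264-2530513 and chr1:39639644-39639893 (minus strand), each read 5′ to 3′ on the gene's strand. The RefSeq starts differ from the gene ends of the count tables. The whole HEYL window (250 bases), 75 bases of the HES4 window and 3 bases of the HES1 window lie inside the gene as counted, and 0 bases of the HES5 window do. Capitals mark the motif, written TTCCCA where it lies on the opposite strand.
HES1: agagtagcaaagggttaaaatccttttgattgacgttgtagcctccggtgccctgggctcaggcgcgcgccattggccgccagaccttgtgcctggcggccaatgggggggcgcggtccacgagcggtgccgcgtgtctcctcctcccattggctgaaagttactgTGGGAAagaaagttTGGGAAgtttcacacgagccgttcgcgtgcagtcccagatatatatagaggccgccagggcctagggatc
HES4: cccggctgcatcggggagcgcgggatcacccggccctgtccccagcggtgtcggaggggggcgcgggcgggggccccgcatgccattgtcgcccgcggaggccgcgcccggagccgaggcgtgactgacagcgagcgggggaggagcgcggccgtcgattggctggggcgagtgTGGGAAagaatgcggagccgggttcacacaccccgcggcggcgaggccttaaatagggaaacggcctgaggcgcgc
HES5: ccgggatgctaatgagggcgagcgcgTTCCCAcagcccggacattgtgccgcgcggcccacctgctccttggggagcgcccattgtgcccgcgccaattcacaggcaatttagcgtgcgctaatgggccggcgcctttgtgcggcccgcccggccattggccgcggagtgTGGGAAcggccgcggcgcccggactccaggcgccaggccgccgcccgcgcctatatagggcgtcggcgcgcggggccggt
HEYL: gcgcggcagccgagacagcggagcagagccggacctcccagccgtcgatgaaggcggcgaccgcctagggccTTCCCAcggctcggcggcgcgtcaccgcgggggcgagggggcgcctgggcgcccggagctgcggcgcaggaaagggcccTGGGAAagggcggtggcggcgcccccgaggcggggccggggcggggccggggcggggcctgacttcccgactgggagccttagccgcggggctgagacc

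HES1 held the motif at 84 to 79 and at 70 to 65 bases before the RefSeq start, both in the direction of the gene. HES4 held it at 76 to 71. HES5, at 0.406 TPM, held it at 80 to 75 and, on the opposite strand, at 224 to 219. HEYL, with 0 counts, held it at 99 to 94 and, on the opposite strand, at 178 to 173. HES6, at 88.4 TPM, held none in this window. Genes holding the 6 letters thus stood at both ends of the levels in the family. A match of letters is a description and says nothing of binding.

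Receptors are modified by sugars before they reach the surface. Of 6 enzymes of this kind, 5 passed 1 TPM in every library. POFUT1, which adds the O-fucose that ligand binding needs, was highest at 61.0, 60.4 and 57.7 TPM. Among the fringe enzymes, which extend that fucose and shift the choice between Jagged and Delta-like ligands, RFNG was at 22.0 ± 0.988 TPM and LFNG at 13.2 ± 1.54. RFNG was 1.67 ± 0.115-fold above LFNG, although 21.6% of its exon bases lie under other genes. MFNG was at 0.156 to 0.207 TPM, from 24 counts. EOGT was at 8.59, 9.49 and 10.2 TPM and POGLUT1, which adds O-glucose, at 10.6 ± 0.267.

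All 8 cleavage genes read passed 1 TPM. ADAM10, the metalloprotease of ligand-driven cleavage, was at 40.1, 41.0 and 41.6 TPM, 2.88 ± 0.0324-fold above ADAM17 at 14.2 ± 0.120. Of the exon bases of ADAM17, 24.1% lie under other genes, and with lengths outside overlaps it was at 17.9 TPM. The furin protease gene FURIN, which cuts receptors on their way to the surface, was at 27.1 ± 0.882. Of the gamma-secretase subunits, APH1A was highest of all at 112.6, 107.9 and 106.5 TPM, and NCSTN followed at 70.7 ± 1.62. APH1A was 7.42 ± 0.419-fold above APH1B, which was at 14.7 ± 0.656 and overlapped with ADAM17. PSEN2, a catalytic subunit, was at 20.1 ± 0.732 TPM, and at 10.9 TPM with the longest coding transcript as length. That transcript has 5158 bases, more than the 3752 over which reads were counted, so the lower value may be too low. PSENEN was at 20.8 ± 0.0469 TPM. Of its exon bases 56.5% lie under other genes, and with lengths outside overlaps it was at 45.5 TPM.

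**Figure D3:**
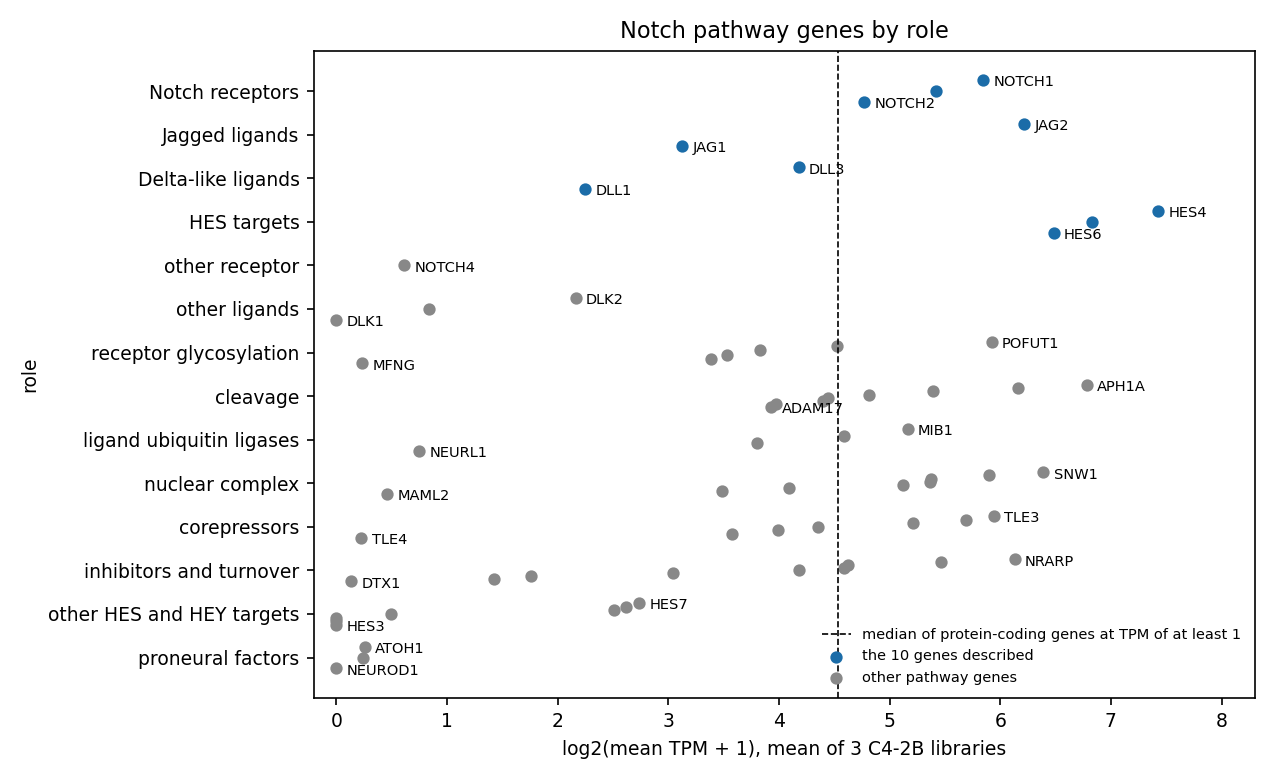
Level as log2(mean TPM + 1) over the 3 C4-2B libraries (x axis) by role (y axis), with a blue point for each of the 10 genes, a grey point for each of the 56 other pathway genes, and a dashed line at the median of protein-coding genes that reached 1 TPM. Names mark the highest and lowest gene of each role. All 8 cleavage genes lie above 1 TPM, and none of the 3 proneural factors does.

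RBPJ, the factor through which the receptor fragment meets DNA, was at 40.2, 40.2 and 41.1 TPM. By the deposited length these values lay above all of NOTCH2, overlapped with those of NOTCH3 (40.5 to 42.9 TPM) and lay below all of NOTCH1. With the longest coding transcript as length the mean of RBPJ was 48.3 TPM, above NOTCH1 at 43.2 TPM. Of the 3 mastermind coactivators, MAML1 was at 40.2 ± 1.21 TPM and MAML3 at 16.1 ± 0.468, with MAML1 2.50 ± 0.102-fold higher, and MAML2 was at 0.495, 0.433 and 0.190. The highest of the 8 nuclear genes was SNW1, a shared transcription and splicing factor, at 82.8 ± 2.57 TPM. The acetyltransferase EP300 was at 58.8 ± 0.587, CREBBP at 33.8 ± 0.414 and KAT2B at 10.2 ± 0.863. Of 7 corepressors, which hold RBPJ or HES targets off, 6 passed 1 TPM. TLE3 was highest at 60.4 ± 0.410, with SPEN at 36.1 ± 1.29. TLE4 was lowest at 0.219, 0.0614 and 0.232 TPM, while TLE1 and TLE2 were at 19.4 ± 1.13 and 14.9 ± 0.977. CTBP1 was at 50.6 ± 1.67.

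NRARP, a Notch target that feeds back on the receptor fragment, was at 73.6, 65.2 and 68.2 TPM and was the highest of 9 inhibitors and turnover genes by the deposited length. With the longest coding transcript as length its mean was 34.3 TPM, below NUMB at 35.6 TPM on that scale. That transcript, from another annotation, has 2641 bases against the 1770 over which NRARP reads were counted. The value of 34.3 TPM and the place below NUMB may therefore be too low. The ubiquitin ligase ITCH was at 43.3 ± 1.80 TPM, NUMB at 23.1 ± 0.391, NUMBL at 23.6 ± 0.812 and FBXW7, which marks the fragment for destruction, at 7.22 ± 0.247. Of the deltex genes, DTX2 was at 17.1 ± 0.674, DTX4 at 2.38 ± 0.383, DTX3 at 1.69 ± 0.244 and DTX1 at 0.0996 ± 0.0406.

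Proneural factors, the genes that HES proteins are known to repress, were near 0 for the 3 genes read. ATOH1 was at 0.187, 0.398 and 0 TPM and NEUROG3 at 0.0913 to 0.301. NEUROD1 had 0 counts, with 3 counts standing for 0.0200 TPM. None of the 3 reached 1 TPM in any library. Over all roles, 41 of the 56 other pathway genes reached 1 TPM in each library, with a median level of 13.7 TPM, and 5 had 0 counts.

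To see whether the spread between replicates was larger than counting noise, the 3 counts of each gene were compared with the library sizes scaled by TMM (edgeR). A chi-square test with Benjamini-Hochberg adjustment over 22229 genes was used, which compares libraries and not conditions. It called 17.3% of the genes tested and 4 of the 10 genes described here. Among the 10970 tested genes whose counts lay within the range of the 10 (546 to 25158 counts), 19.9% were called. The 4 called genes were HES4, HES6, JAG2 and NOTCH3. Mates of a read pair were counted separately in these tables and are not independent, and dividing the statistic by 2 called 0.792% of genes and HES4 alone of the 10.

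HES4 had scaled counts of 3127, 2923 and 2593, a range of 0.27 on the log2 scale (adjusted p = 8.11e-09, TMM chi-square, and 0.00178 after division by 2). HES6 had 2908, 2645 and 2585, a range of 0.17 (adjusted p = 0.000950, TMM chi-square). JAG2 had a range of 0.10 (adjusted p = 0.00220) and NOTCH3 of 0.10 (adjusted p = 0.0152) in the same TMM chi-square. These 4 genes were highest in replicate 1 and lowest in replicate 3. The call of HES4 was lost without replicate 3 (adjusted p = 0.108, TMM chi-square). DLL3 had a range of 0.04 and NOTCH1 and NOTCH2 of 0.05 each. The median range over the 10 was 0.10, as it was over the tested genes with 546 to 25158 counts (0.10), and 0.20 over all genes tested. The median chi-square, which measures spread against counting noise, was 7.51 over the 10. It was 3.97 over the tested genes with 546 to 25158 counts and 3.63 over all genes tested. For the same relative spread the chi-square grows with the count. The genes compared shared the range of counts but were not matched on count, so these medians and the shares called also depend on counts.

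Exon GC content moved with this spread. The 10 genes had a median exon GC of 62.8%, against 48.2% over the tested genes. Of the 10, 6 lay in the highest 2 of 20 bins of genes with at least 200 counts, sorted by GC. HES4, at 73.8%, had a higher GC than 99.9% of tested genes. Over the genes of the highest bin, the ratio of count to expectation was 1.03 in replicate 1, 0.997 in replicate 2 and 0.979 in replicate 3. The median log2 ratio of replicate 3 to replicate 1 in that bin was -0.067, while HES4 was at -0.27, HES6 at -0.17, JAG2 at -0.10 and DLL3 at 0.03. Lowest in replicate 3 were 8 of the 10 genes, and 33.6% of all tested genes. Each library was then corrected for its GC bin, a step chosen after seeing the data. HES4 alone of the 10 was called (adjusted p = 8.41e-05, TMM chi-square), against 14.5% of the genes tested. HES4 and HES6 were corrected by the highest bin, which spanned 63.8 to 83.9% GC with a median of 65.6%. The correction may therefore not fit these 2 genes, which lie above that median. With the correction and the division by 2 together, 0.387% of the genes tested and none of the 10 were called. HES4 then had an adjusted p = 0.114 (TMM chi-square), and 1 of the 10 had an unadjusted p under 0.05.

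**Figure D4:**
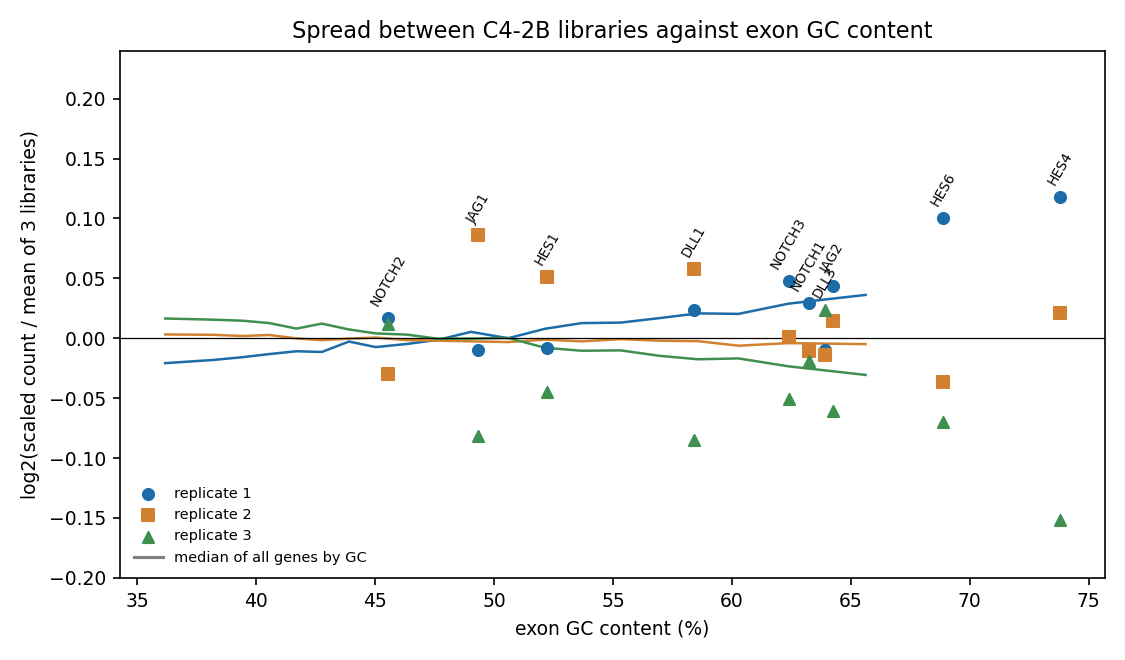
Log2 ratio of each scaled count to the mean of the 3 libraries for the 10 genes, against exon GC content in percent, with symbols for replicates. Lines show the median of genes with at least 200 counts in 20 bins of GC. They end at 65.6%, the median GC of the highest bin. HES4 and HES6 lie to the right of the lines, at 73.8% and 68.9% GC. Their replicate 1 lies above and their replicate 3 below the mean of the 3 libraries.

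Among the other pathway genes, 13 of the 46 tested were called by the undivided chi-square, against 17.3% of all genes tested. After division by 2, 0 were called (TMM chi-square, 8 at an unadjusted p under 0.05), against 0.792% of all genes tested. The 13 were POFUT1, EOGT, LFNG, APH1A, MAML2, KAT2B, SPEN, CTBP1, TLE1, TLE4, ITCH, DTX4 and NRARP. The widest range was that of TLE4, at 1.91 on the log2 scale with 62 counts over the libraries, followed by MAML2 at 1.39 with 120 counts. LFNG, highest in replicate 2, ranged over 0.31 with 2046 counts.

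The order of the genes depended on scaling by length. On CPM, the count as a part of its library's total with no division by length, NOTCH1 came first at 179 CPM, followed by JAG2 at 151, NOTCH2 at 142, NOTCH3 at 126 and HES1 at 74.7 CPM. HES4 fell to the 6th place of the 10, at 61.4 CPM. JAG1 then stood above DLL3, at 21.2 against 14.4 CPM. HES4 has 1118 exon bases in the tables and NOTCH2 has 16807. CPM is a number of reads and not a level per molecule, so the order by TPM is the one that compares genes. With the longest coding transcript as length, or with the bases outside other genes, the order by TPM was the same.

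**Figure D5:**
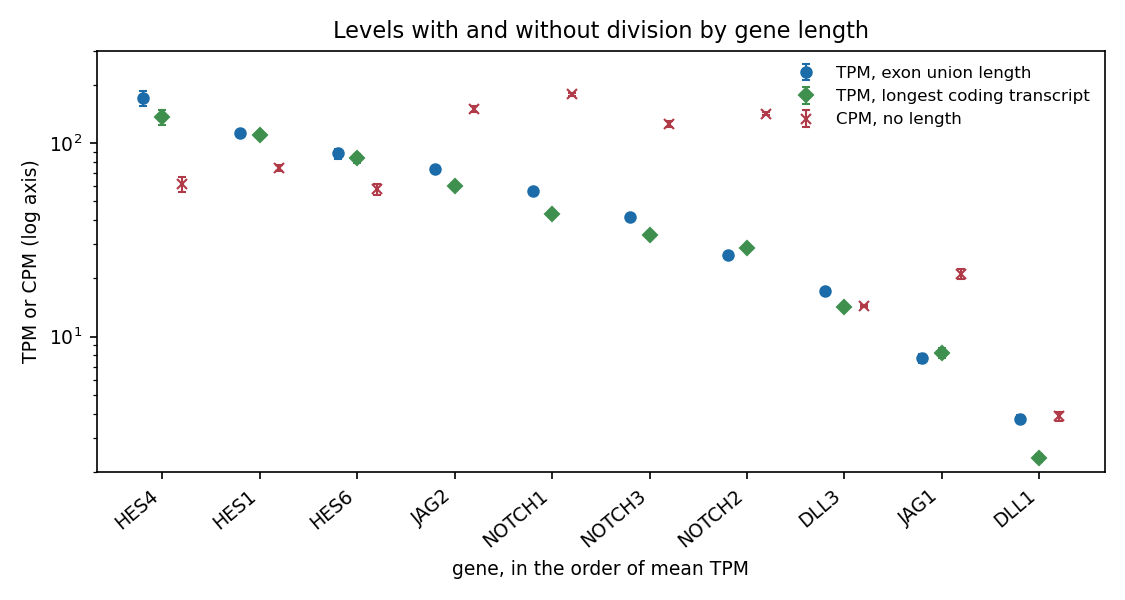
Mean level of the 10 genes over the 3 C4-2B libraries on a log axis, as TPM with the deposited exon length, TPM with the longest coding transcript, and CPM, with SD error bars. CPM lies below TPM for the short genes HES4, HES1 and HES6 and above it for NOTCH1, NOTCH2, NOTCH3, JAG1 and JAG2.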

How the data were processed

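Total RNA of C4-2B cells in triplicate was depleted of ribosomal RNA, and directional libraries were made. Per the labels and the file headers, the authors aligned reads to GRCh38 with STAR 2.7.0f and deposited raw counts per gene from featureCounts 1.6.3 (Subread) with Ensembl release 90. As recorded there, no strand and no pair option was set, so reads of both strands and both mates were counted, and reads on several genes or places were not. The files also hold another value per gene, the number of exon bases (length), from which TPM was computed here over all 58302 genes (57532 with a symbol).

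The genes and lists were chosen with earlier results of these data known, and some genes of the lists are not reported here. Named were the 10 genes, and of each role the highest and lowest gene, those past the chi-square threshold and small families. Likeness of pattern was not ranked, since 1 group has no pattern over conditions. Levels are means ± SD of 3 libraries. Neighbours in level were compared by exact permutation. Libraries were compared by chi-square (2 degrees of freedom, at least 30 counts, adjusted p under 0.05) on TMM sizes (edgeR 4.0.16, R 4.3.3), with DESeq2 1.42.0 size factors as an alternative. The test was checked on simulated counts. Copies of exons were searched with BLAST 2.17.0, and GENCODE release 44 gave gene types and coding transcripts. Intervals and limits cover counting error only, and are too narrow where mates were counted separately. Fold ratios are of TPM. The NOTCH2 length without copies and the GC corrections were added after seeing the data.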

Additional observations from a re-analysis of the deposited data

How the results depend on the processing

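All 10 genes stayed at 1 TPM or above in every alternative tried, and 41 or 42 of the other 56 did. The share of NOTCH1 among receptors was 39.9% by CPM, 40.8% with the longest coding transcript and 41.0% with the NOTCH2 length outside copies. The share of JAG2 among ligands was 78.8% by CPM, 72.9% with lengths outside overlaps and 70.2% with the longest transcript. The share of HES4 among HES genes was 29.8% by CPM and 40.2% with the longest transcript.

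Genes differing between libraries numbered 176 after division by 2 (0.792% of those tested). They numbered 1383 to 2323 when each replicate was left out (6.76 to 11.5%). With the GC correction they numbered 3224 (14.5%), and with division and the GC correction 86 (0.387%). The 10 genes gave 1 call after division by 2, 1 to 4 when each replicate was left out, 1 with the GC correction and 0 with both. The other pathway genes gave 0 calls after division by 2, 3 to 9 when each replicate was left out, 7 with the GC correction and 0 with both (5 at an unadjusted p under 0.05). Without replicate 1 the calls among the 10 were JAG2 and HES4, and without replicate 3 HES6. DESeq2 size factors and total counts called the same 4 and 13 genes as TMM.

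With the longest coding transcript, TLE3 moved to 94.3 TPM, RFNG to 33.8, POGLUT1 to 15.9, HEY1 to 3.27 and NEUROG3 to 0.118. For HEY1 (3767 against 3232 bases) and NEUROG3 (1560 against 1376) that transcript is longer than the exons counted. Their values on this scale may be too low. ATOH1 was at 0.0936 TPM without replicate 2 and NEUROG3 at 0.119 without replicate 1. No paired analysis was possible because the files cover 1 group, C4-2B, and replicate numbers had no other group to pair with. Depth limits the genes with few counts (HES5, MFNG, TLE4), and the lack of strand limits genes that overlap others.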
